A study of Mus musculus with 4 samples.

Results

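AOC3 and AOC11 are cell lines grown from primary oral tumors of 2 mice, and they were compared with each other gene by gene. They are 2 of the 4 lines sequenced. A gene was kept when it reached 1 FPKM in either line and its longest transcript had 200 bases or more, which left 12979 of the 34685 genes in the table. FPKM is the number of sequenced fragments per kilobase of transcript, scaled to the mapped fragments of the library, so a level can be set against that of another gene. A difference is log2(FPKM + 1) in AOC3 minus log2(FPKM + 1) in AOC11, positive where AOC3 is higher, and a gene was counted as higher in a line when the difference was above 1 or below -1. Each line is 1 library from 1 mouse, so no difference has a replicate check, no test is possible, and what is particular to the mouse, the tumor, the culture or the library cannot be told apart.

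Both tumors arose in male C57BL/6 mice whose buccal mucosa had been painted with the carcinogen DMBA on a cotton swab, for 28 weeks in the mouse that gave AOC3 and for 31 weeks in the mouse that gave AOC11. Tumor cells had formed a subcutaneous tumor in the flank of another C57BL/6 mouse, were freed of fibroblasts and were kept in DMEM/F12 medium with serum before their RNA was sequenced. The lymph node lines AOC3-LN and AOC11-LN came from metastases of the same 2 mice and are used only where stated. The comparison asks how far tumors of 1 origin, strain and carcinogen differ in the genes they express.

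The lining of the cheek is a stratified squamous epithelium. Its basal cells carry the keratin pair Krt5 and Krt14 and rest on laminin through integrins, and cells above them switch to other keratins and to the proteins of the cornified envelope. Simple, single-layered epithelia use Krt8, Krt18, Krt19 and Krt7 instead, and carcinomas of squamous origin often mix both sets. Tumor cells of this kind also show antigen on class I molecules, answer interferon and release cytokines that draw in white blood cells.

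All 9 epithelial markers on the list passed 1 FPKM in both lines, among them Epcam, a surface adhesion protein, with 518 FPKM in AOC3 and 416 FPKM in AOC11, and Cdh1 (E-cadherin) with 144 FPKM in AOC3 and 151 FPKM in AOC11. None of the 12 fibroblast markers was kept, and their summed level was 0.306 FPKM in AOC3 and 1.33 FPKM in AOC11. For T and B cells, 0 of 11 markers were kept, with sums of 1.27 and 0.64 FPKM and Cd3e, Cd4 and Cd8a at 0 in both. Of 12 macrophage markers 3 were kept, with a sum of 21.8 FPKM in AOC3 and 33.9 FPKM in AOC11, while Adgre1, Tyrobp, C1qa and Lyz2 stood at 0 in both. Csf1r, the receptor for colony-stimulating factor 1, made up most of that sum in AOC11, with 0.995 FPKM in AOC3 and 20.8 FPKM in AOC11. The other lists of markers had 1 kept gene for endothelium (Egfl7), 1 for salivary acini (Aqp5), 1 for melanocytes (Mitf) and 0 for skeletal muscle. Genes of the Y chromosome were present in both lines, with Ddx3y at 5.01 FPKM in AOC3 and 5.01 FPKM in AOC11. The part of other cells in the results was not tested.

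The spacing of low FPKM values put the depth at about 33550000 fragments for AOC3 and 33750000 fragments for AOC11, and the fragment numbers given below are estimates made with these depths. How strand was used in counting is not given in the sources used here, so genes overlapped by another on the opposite strand, among them Krt5, Clec2g, Pitx1, Notch1, Gpx2, Car9, Mpg, Fosl1, Ltbp2 and Tapbpl, may share reads with it. The libraries differed at a ribosomal RNA locus. The 3 annotated genes that overlap the ribosomal repeat on chromosome 17 (CT010467.1, Gm42418 and AY036118) took 1.24% of fragments in AOC3 and 0.0826% in AOC11, against 1.63% and 1.58% in the lymph node lines. AOC11 thus stood apart from the other 3 libraries in this measure, and the part of this in the differences below was not tested. Several of the most abundant transcripts were shared by both lines. Among them were those of the elongation factor Eef1a1, with 7601 FPKM in AOC3 and 5934 FPKM in AOC11, the ribosomal stalk protein Rplp0, with 3356 FPKM in AOC3 and 2999.8 FPKM in AOC11, and the prolyl isomerase Ppia, with 3561 FPKM in AOC3 and 2873 FPKM in AOC11. Others differed more, though within 1, such as mt-Atp8, with 10081 FPKM in AOC3 and 6506 FPKM in AOC11. S100a6 had 4529 FPKM in AOC3 and 2653 FPKM in AOC11, and Actb 3003 FPKM in AOC3 and 4646 FPKM in AOC11.

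Most genes were close in both lines. The difference lay between -1 and 1 for 89% of kept genes, with a median of -0.03 and quartiles of -0.36 and 0.33. In all, 1432 genes were past 1 in either direction, which is 11% of those kept. Of these, 786 were higher in AOC3 (6.06%) and 646 were higher in AOC11 (4.98%). Larger differences leaned to AOC3, with 55 genes above 3 against 20 below -3. Protein-coding genes split evenly, 579 against 583, while other gene types did not, 207 against 63. The share past 1 was 22.3% for protein-coding genes with a mean under 3 FPKM and 3.93% for those with a mean above 300 FPKM. In AOC3 and not in AOC11, 837 genes reached 1 FPKM, and 487 did so in AOC11 and not in AOC3. Such genes were kept through the line where they are high, so counts among the kept members of a list are a description.

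**Figure D1:**
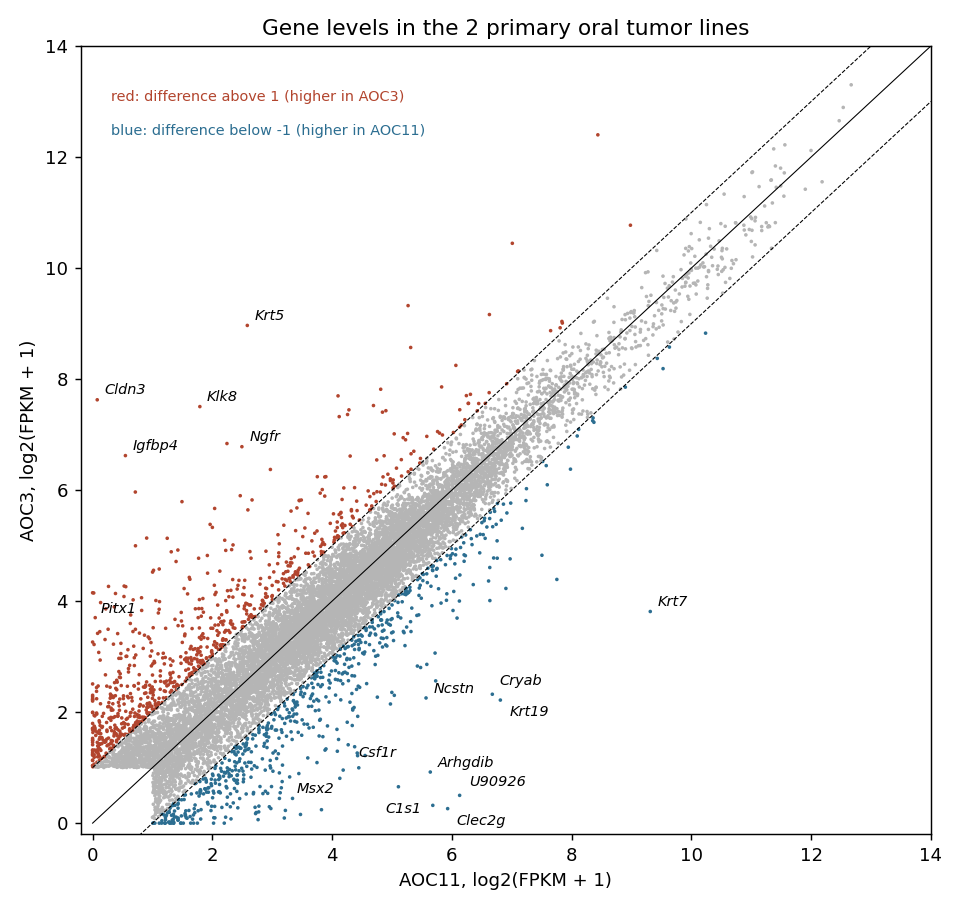
Level of each of the 12979 kept genes in AOC11 (horizontal) and AOC3 (vertical), as log2(FPKM + 1), 1 point per gene and 1 library per line. Dashed lines mark differences of 1 and -1. Krt5, Cldn3 and Klk8 lie far above the diagonal and Krt7, Krt19 and Clec2g far below it, while 89% of the points lie between the dashed lines.

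The lines carried different keratins. Krt5, the basal type II keratin, had 499 FPKM in AOC3 and 4.99 FPKM in AOC11, a difference of 6.38 and a ratio of 99.9. Krt7, a type II keratin of simple and glandular epithelium, had 13 FPKM in AOC3 and 635 FPKM in AOC11, a difference of -5.50, so that AOC11 held 48.7 times the level of AOC3. Krt19, the type I keratin that has almost no tail domain, was also low in AOC3, with 3.65 FPKM in AOC3 and 111 FPKM in AOC11 and a difference of -4.59. The keratins shared by both lines were Krt8 and Krt18, the founding pair of simple epithelium, and Krt14 and Krt17. Krt8 had 815 FPKM in AOC3 and 949 FPKM in AOC11, and Krt18 had 1307 FPKM in AOC3 and 957 FPKM in AOC11. Krt14, the usual partner of Krt5, did not follow it, with 166 FPKM in AOC3 and 257 FPKM in AOC11 and a difference of -0.63, and Krt17 had 547 FPKM in AOC3 and 501 FPKM in AOC11. AOC11 thus held Krt14 transcripts with few of Krt5, and AOC3 held both.

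Krt5 (chr15:101707070-101712898, minus strand) and Krt7 (chr15:101411043-101430313, plus strand) belong to the same cluster of type II keratin genes, and their RefSeq start sites are 301 kb apart in mm10. Their promoters are shown because genes of 1 cluster were high in different lines. The 250 bases before each start site, from RefSeq on GRCm38.p6, follow 5′ to 3′ in lower case, with each GC box (GGGCGG on either strand) in capitals. The Krt5 stretch is chr15:101712906-101713155 on the minus strand and that of Krt7 is chr15:101412153-101412402 on the plus strand.
Krt5: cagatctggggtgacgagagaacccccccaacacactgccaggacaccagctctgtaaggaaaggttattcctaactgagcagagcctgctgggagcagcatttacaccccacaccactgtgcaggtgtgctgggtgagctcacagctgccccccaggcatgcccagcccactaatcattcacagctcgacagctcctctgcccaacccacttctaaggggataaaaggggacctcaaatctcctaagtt
Krt7: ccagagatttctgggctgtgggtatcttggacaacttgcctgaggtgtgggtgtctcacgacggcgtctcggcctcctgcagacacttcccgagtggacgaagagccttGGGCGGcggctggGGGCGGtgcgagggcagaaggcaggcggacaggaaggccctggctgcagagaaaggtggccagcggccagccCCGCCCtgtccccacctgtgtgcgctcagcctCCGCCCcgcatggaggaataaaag
The Krt7 stretch holds 4 GC boxes and the Krt5 stretch 0, and 61.4% of the 9006 kept genes with a promoter in the table have at least 1.

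Some other squamous genes were also higher in AOC3. Krt6a, a keratin of wounded and hyperproliferative epithelium, had 22.9 FPKM in AOC3 and 1.16 FPKM in AOC11, a difference of 3.47, although the value is uncertain because annotated transcripts on the opposite strand overlap it. Its close paralog Krt6b had 2.94 FPKM in AOC3 and 0.135 FPKM in AOC11. Pitx1, a homeobox factor of the hindlimb and oral epithelium, had 16.7 FPKM in AOC3 and 0.013 FPKM in AOC11. The AOC11 value corresponds to about 1 fragment, and the ratio of 1277 has a 95% interval from 229 to 50492. Such intervals are exact binomial ones on estimated fragments and cover counting error only. Trp63, the master factor of stratified epithelium, was low in both lines and lower in AOC11, with 1.69 FPKM in AOC3 and 0.0848 FPKM in AOC11. Tfap2c, an AP-2 factor of ectoderm, went the other way, with 0.0661 FPKM in AOC3 and 8.2 FPKM in AOC11 and a difference of -3.11, while its relative Tfap2a had 20.5 FPKM in AOC3 and 20.1 FPKM in AOC11. Of 20 kept members of the stratified keratin and squamous factor list, 5 were higher in AOC3 and 2 in AOC11, with a median of 0.03. This is a share of 35% past 1 beside 11% of all kept genes. Krt6b, Pitx1 and Trp63 were kept only through AOC3 and Tfap2c only through AOC11. At 5 FPKM in either line, 4 members were past 1. Of the 4 kept simple keratins, 2 were higher in AOC11 and 0 in AOC3, a share of 50% past 1.

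**Figure D2:**
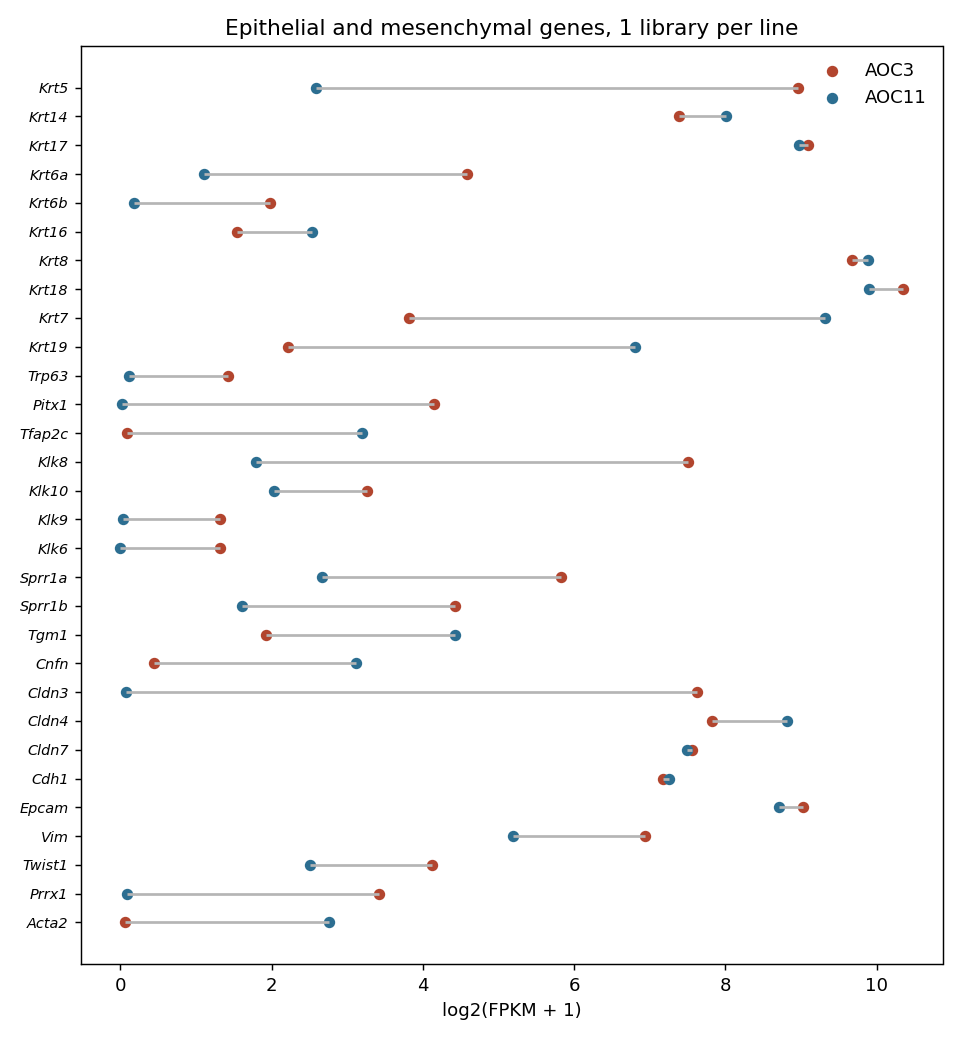
Levels of epithelial and mesenchymal genes in AOC3 (red) and AOC11 (blue) as log2(FPKM + 1), with a grey line joining the 2 values of a gene. Krt5, Klk8, Cldn3 and Prrx1 are far higher in AOC3 and Krt7, Krt19 and Tfap2c far higher in AOC11, while Cdh1, Cldn7 and Krt17 nearly coincide.

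The largest difference of any protein-coding gene was that of a tight junction protein. Cldn3 (chr5:134986214-134987472, overlapped on the opposite strand by Wbscr25), a claudin that seals the space between epithelial cells, had 197 FPKM in AOC3 and 0.055 FPKM in AOC11, a difference of 7.55. At about 7213 fragments against 2, the ratio of 3562 has a 95% interval from 986 to 29416. Cldn4, its neighbour on chromosome 5, leaned the other way, with 225 FPKM in AOC3 and 449.6 FPKM in AOC11, within the threshold. Cldn7 differed little, with 187 FPKM in AOC3 and 179 FPKM in AOC11, and Cldn6, a claudin of embryonic epithelium, had 2.79 FPKM in AOC3 and 0.118 FPKM in AOC11. Dsp (desmoplakin), which ties keratin to desmosomes, was higher in AOC11, with 17.3 FPKM in AOC3 and 36.4 FPKM in AOC11 and a difference of -1.03 that is close to the threshold. Of 32 kept junction genes, 2 were higher in AOC3 and 1 in AOC11, with a median of -0.05. The other 29 lay within 1, and the share past 1 of 9.38% is near the 11% of all kept genes.

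Most genes that anchor cells to the basement membrane were close in both lines. Itga6, the integrin subunit of the hemidesmosome, had 188 FPKM in AOC3 and 86.3 FPKM in AOC11 and a difference of 1.11. Itga2, a collagen receptor subunit, had 6.48 FPKM in AOC3 and 2.38 FPKM in AOC11. Of 22 kept members 3 were above 1, against 0 below -1, and this share of 13.6% past 1 is near the 11% of all kept genes. Itgb4, the partner of Itga6, did not follow it, with 39.9 FPKM in AOC3 and 59.1 FPKM in AOC11, and the laminin chain Lamb3 was close, with 74.3 FPKM in AOC3 and 72.5 FPKM in AOC11.

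Kallikrein-related peptidases, secreted serine proteases of squamous epithelium, some of which cut the links between its cells, were present in AOC3 and scarce in AOC11. Klk8 (chr7:43797577-43803826) had 180.4 FPKM in AOC3 and 2.46 FPKM in AOC11, a difference of 5.71 and a ratio of 73.3. Klk10 had 8.63 FPKM in AOC3 and 3.11 FPKM in AOC11. Klk9 had 1.49 FPKM in AOC3 and 0.0246 FPKM in AOC11, about 66 fragments against 1, a ratio of 65.4 with an interval from 11.3 to 2621. Klk6 had 1.49 FPKM in AOC3 and was listed at 0 in AOC11. All 4 kept members were above 1, but Klk9 and Klk6 were kept only through AOC3, and at 5 FPKM in either line 2 members were left. The other 8 of 12 stayed under 1 FPKM in both lines. They form 1 gene cluster, and Klk8, Klk9 and Klk10 overlap a transcript on the opposite strand, so their reads may be shared in part.

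Genes of terminal differentiation went both ways. The small proline-rich proteins Sprr1a and Sprr1b, which are cross-linked into the cornified envelope, were higher in AOC3. Sprr1a had 55.6 FPKM in AOC3 and 5.33 FPKM in AOC11 and a difference of 3.16, and Sprr1b had 20.5 FPKM in AOC3 and 2.06 FPKM in AOC11 and a difference of 2.81. Tgm1, the transglutaminase that makes those cross-links, was higher in AOC11, with 2.79 FPKM in AOC3 and 20.5 FPKM in AOC11 and a difference of -2.50. Cnfn (cornifelin), another envelope protein, had 0.361 FPKM in AOC3 and 7.69 FPKM in AOC11. In total 2 of 16 kept members were higher in AOC3 and 5 in AOC11, a share of 43.8% past 1 beside 11% of all kept genes. Late markers such as Lor stayed low, with 0.844 FPKM in AOC3 and 0.556 FPKM in AOC11.

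Several genes of mesenchymal cells were higher in AOC3, while Epcam and Cdh1 were close. Vim (vimentin), an intermediate filament protein, had 122 FPKM in AOC3 and 35.4 FPKM in AOC11 and a difference of 1.76. Twist1, a transcription factor of epithelial-mesenchymal transition, had 16.4 FPKM in AOC3 and 4.69 FPKM in AOC11, and Prrx1, a homeobox factor of mesenchyme, had 9.69 FPKM in AOC3 and 0.0593 FPKM in AOC11 and a difference of 3.34. Tnc (tenascin C), a matrix glycoprotein, had 129 FPKM in AOC3 and 37.3 FPKM in AOC11. Acta2, smooth muscle actin, was the member higher in AOC11, with 0.0445 FPKM in AOC3 and 5.79 FPKM in AOC11, which is about 3 fragments against 361, a ratio of 121 with an interval from 41 to 589. Of 16 kept members 6 were higher in AOC3 and 1 in AOC11, with a median of 0.14. This is a share of 43.8% past 1 beside 11% of all kept genes. The fibroblast markers of the same list, such as Col1a1 with 0.0411 FPKM in AOC3 and 0.308 FPKM in AOC11, were near 0.

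Matrix proteases and their inhibitors also leaned to AOC3. Timp1, an inhibitor of metalloproteinases, had 96.8 FPKM in AOC3 and 18.7 FPKM in AOC11 and a difference of 2.31. Serpine2, an inhibitor of thrombin and urokinase, had 13.9 FPKM in AOC3 and 0.285 FPKM in AOC11 and a difference of 3.53. Mmp9, a gelatinase, had 46.8 FPKM in AOC3 and 11.1 FPKM in AOC11. Adam8, a membrane metalloprotease, was higher in AOC11, with 1.84 FPKM in AOC3 and 16.2 FPKM in AOC11 and a difference of -2.60. The list had 7 members higher in AOC3 and 2 in AOC11 among 23 kept, a share of 39.1% past 1 beside 11% of all kept genes. The other 14 lay within 1. In all 12 members were above 0 and 11 below, with a median of 0.18.

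**Figure D3:**
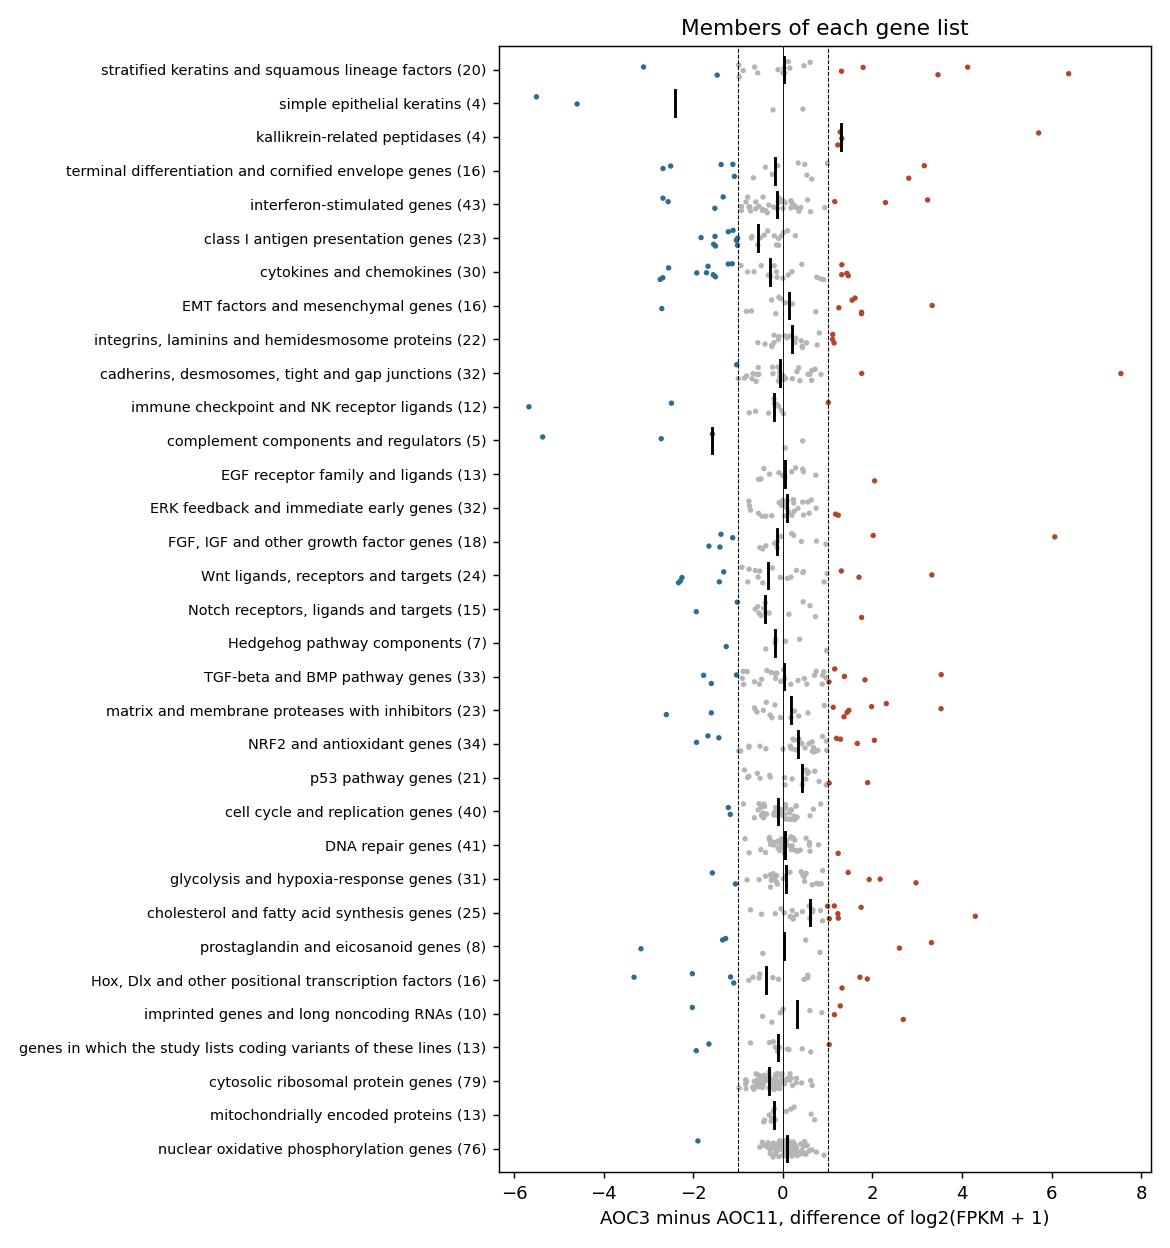
Difference of log2(FPKM + 1), AOC3 minus AOC11, for each kept member of the gene lists with at least 4 kept members (number kept in brackets). Each point is a gene, red above 1 and blue below -1, and black bars mark list medians. The points of the class I list lie mostly to the left of 0 and those of the kallikrein list to the right, no ribosomal protein gene is past 1, and 1 oxidative phosphorylation gene is.

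A few interferon-stimulated genes differed between the lines. Bst2 (tetherin), which holds budding virus at the membrane, had 17.7 FPKM in AOC3 and 119 FPKM in AOC11 and a difference of -2.67. Ifi27 had 1.53 FPKM in AOC3 and 13.9 FPKM in AOC11 and a difference of -2.56. Aim2, a sensor of cytosolic DNA, was higher in AOC3, with 10.3 FPKM in AOC3 and 0.197 FPKM in AOC11 and a difference of 3.23, and Oasl1, a relative of the oligoadenylate synthetases, had 5.64 FPKM in AOC3 and 0.355 FPKM in AOC11. Of 43 kept members, 3 were higher in AOC3 and 4 in AOC11, with a median of -0.12 beside -0.03 for all kept genes. The share past 1 was 16.3%, beside 11% of all kept genes. With a pseudocount of 0.1, 13 members were past 1. The signal transducers Stat2 with 6.72 FPKM in AOC3 and 5.4 FPKM in AOC11 and Irf9 with 2.23 FPKM in AOC3 and 3.9 FPKM in AOC11 were within 1. The remaining 26 of 69 members stayed under 1 FPKM in either line.

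Several genes that prepare peptides for class I molecules were higher in AOC11, while the main class I chains were close. Psmb8, a subunit of the immunoproteasome, had 1.84 FPKM in AOC3 and 9.07 FPKM in AOC11 and a difference of -1.82, and Psmb9, another such subunit, had 0.913 FPKM in AOC3 and 3.44 FPKM in AOC11. Tap1 and Tap2, the chains of the transporter that carries peptides into the endoplasmic reticulum, had 0.296 FPKM in AOC3 and 2.78 FPKM in AOC11 for Tap1 and 0.984 FPKM in AOC3 and 4.62 FPKM in AOC11 for Tap2, differences of -1.54 and -1.50. Tapbpl, a peptide editor, had 4.98 FPKM in AOC3 and 16.1 FPKM in AOC11. Psmb9, Tap1 and Tap2 were kept only through AOC11. The class I heavy chains H2-K1, with 424 FPKM in AOC3 and 393 FPKM in AOC11, and H2-D1, with 198 FPKM in AOC3 and 163 FPKM in AOC11, and their light chain B2m, with 459 FPKM in AOC3 and 452 FPKM in AOC11, had differences of 0.11, 0.28 and 0.02. The nonclassical H2-T23, with 15.1 FPKM in AOC3 and 32 FPKM in AOC11, had a difference of -1.04. Reads of heavy chain genes are hard to place because the genes are near copies. Of 23 kept members 9 were higher in AOC11 and 0 in AOC3, with a median of -0.56. This is a share of 39.1% past 1 beside 11% of all kept genes. With quantile normalization, with scaling by the median ratio and at 5 FPKM in either line, 6 were past 1. H2-T23 came within 1 under quantile normalization, at -0.98, and under scaling, at -0.99. So did H2-T22 and Tapbp, which were at -1.01 in the main values.

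Tap1 and Psmb9 start 226 bases apart and point away from each other, so 1 stretch of DNA lies before both. It is shown because both genes were higher in AOC11, although they overlap on opposite strands and their reads may be shared. The 250 bases before the Tap1 start (chr17:34187306-34187555, plus strand, GRCm38.p6) reach past the Psmb9 start, and the GC box is in capitals. The Bst2 stretch of 120 bases (chr8:71537532-71537651, minus strand) is shown with its interferon response elements in capitals, written as GAAA, any 2 bases, GAAA on either strand.
Tap1: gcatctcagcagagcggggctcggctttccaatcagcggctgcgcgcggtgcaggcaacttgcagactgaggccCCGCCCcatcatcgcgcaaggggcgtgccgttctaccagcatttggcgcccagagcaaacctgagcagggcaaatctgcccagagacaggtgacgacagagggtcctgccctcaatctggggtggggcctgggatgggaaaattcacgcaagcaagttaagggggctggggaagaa
Bst2: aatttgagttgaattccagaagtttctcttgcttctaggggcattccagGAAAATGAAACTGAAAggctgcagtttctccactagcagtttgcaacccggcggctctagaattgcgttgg
In Bst2 2 such elements overlap. Among the 250 bases before the start, 37.1% of 35 interferon-stimulated genes with a promoter in the table held that motif, against 2.35% of all kept genes, 1.85% of those higher in AOC3 and 3.32% of those higher in AOC11. A match describes these letters only.

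Several CXC chemokines, which attract neutrophils, were higher in AOC11. Cxcl5 had 27.3 FPKM in AOC3 and 180.4 FPKM in AOC11 and a difference of -2.68, Cxcl3 had 3.93 FPKM in AOC3 and 31.9 FPKM in AOC11 and a difference of -2.74, and Ppbp, the platelet basic protein, had 26.4 FPKM in AOC3 and 103 FPKM in AOC11 and a difference of -1.92. The most abundant member, Cxcl1, hardly differed, with 313 FPKM in AOC3 and 357 FPKM in AOC11. Ccl9, a CC chemokine, had 0.126 FPKM in AOC3 and 5.6 FPKM in AOC11, which is about 12 fragments against 533. Il23a, a subunit of interleukin-23, had 32.9 FPKM in AOC3 and 107 FPKM in AOC11. Among members higher in AOC3 were Il1a (interleukin-1 alpha), with 173 FPKM in AOC3 and 69.1 FPKM in AOC11, and Il34, a ligand of the receptor Csf1r, with 41.2 FPKM in AOC3 and 14.7 FPKM in AOC11. Csf1, the other ligand of that receptor, had 174 FPKM in AOC3 and 211 FPKM in AOC11, and Csf1r itself was higher in AOC11, as given above. Csf1r overlaps Hmgxb3 on the opposite strand. Of 30 kept cytokine genes 10 were higher in AOC11 and 4 in AOC3, with a median of -0.30. This is a share of 46.7% past 1 beside 11% of all kept genes.

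Complement proteases and ligands of natural killer cell receptors held 2 of the most negative differences. C1s1 (chr6:124530345-124542359), a serine protease of the first complement component, had 0.249 FPKM in AOC3 and 50.3 FPKM in AOC11, a difference of -5.36. It is overlapped on the opposite strand by Gm16567, which moved with it (0.575 FPKM in AOC3 and 33.5 FPKM in AOC11), and their reads cannot be told apart without knowing how strand was used in counting. C1ra, the protease that activates C1s, had 0.20 FPKM in AOC3 and 6.87 FPKM in AOC11 and a difference of -2.71. Cr1l, a membrane regulator of complement, had 6.31 FPKM in AOC3 and 20.7 FPKM in AOC11, while C3 had 42.2 FPKM in AOC3 and 40.6 FPKM in AOC11. Of 19 complement genes 5 were kept and 3 were higher in AOC11, of which C1s1 and C1ra were kept only through that line. This is a share of 60% of the kept members past 1, beside 11% of all kept genes. The list's median was -1.57 over kept genes and 0.0015 with no filter on low values. Clec2g (chr6:128934381-128984707), a C-type lectin-like gene of the family that binds Nkrp1 receptors, had 0.199 FPKM in AOC3 and 59.9 FPKM in AOC11, a difference of -5.67 and the most negative value of any protein-coding gene. Its relatives Clec2f, with 32.3 FPKM in AOC3 and 49.8 FPKM in AOC11, and Clec2d, with 2.51 FPKM in AOC3 and 2.87 FPKM in AOC11, were within 1. Lgals9 (galectin-9) had 3.82 FPKM in AOC3 and 26 FPKM in AOC11 and a difference of -2.49, and the adhesion molecule Nectin1 was the member above 1, with 3.24 FPKM in AOC3 and 1.1 FPKM in AOC11 and a difference of 1.02 near the threshold.

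Genes of insulin-like and fibroblast growth factor signalling differed in both directions. Igfbp4, which binds insulin-like growth factors, had 97.4 FPKM in AOC3 and 0.462 FPKM in AOC11, a difference of 6.07 and a ratio of 211. Igfbp6 had 3.44 FPKM in AOC3 and 0.0956 FPKM in AOC11, about 109 fragments against 3, a ratio of 35.8 with an interval from 11.9 to 176. Igfbp7, the most abundant of the family, had 478 FPKM in AOC3 and 680.1 FPKM in AOC11, a difference of -0.51. Of 18 kept genes of this list 2 were higher in AOC3 and 4 in AOC11, a share of 33.3% past 1 beside 11% of all kept genes. Fgfr1, a receptor for fibroblast growth factors, was higher in AOC11, with 20.3 FPKM in AOC3 and 65.7 FPKM in AOC11 and a difference of -1.65. Pgf (placental growth factor) had 5.54 FPKM in AOC3 and 16.3 FPKM in AOC11. Nrg1 (neuregulin-1), a ligand of Erbb3, had 10.7 FPKM in AOC3 and 1.84 FPKM in AOC11. It was the only gene past 1 of 13 kept in the EGF receptor list, a share of 7.69%, below the 11% of all kept genes. The receptor Egfr was close, with 15.5 FPKM in AOC3 and 16.6 FPKM in AOC11. Of the 32 kept ERK feedback and immediate early genes, 6.25% were past 1, which is below the 11% of all kept genes. Here 2 were higher in AOC3 and 0 in AOC11. These were the AP-1 subunit Fosl1, with 39 FPKM in AOC3 and 16 FPKM in AOC11, and the phosphatase Dusp5, with 30.7 FPKM in AOC3 and 13 FPKM in AOC11.

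Ligands of 1 pathway could go in opposite directions. In the Wnt list Wnt10b had 39.2 FPKM in AOC3 and 3.0 FPKM in AOC11, a difference of 3.33, and its sister gene Wnt10a had 19.6 FPKM in AOC3 and 96.9 FPKM in AOC11, a difference of -2.25. Wnt11 was also higher in AOC11, with 1.94 FPKM in AOC3 and 13.4 FPKM in AOC11, and so was Tcf7l1, a repressor of Wnt targets, with 0.579 FPKM in AOC3 and 6.93 FPKM in AOC11. Among 24 kept Wnt genes 3 were higher in AOC3 and 5 in AOC11, a share of 33.3% past 1. In the Notch list the ligand Jag1 was higher in AOC3, with 28.2 FPKM in AOC3 and 7.63 FPKM in AOC11, and the receptor Notch1 in AOC11, with 2.66 FPKM in AOC3 and 13 FPKM in AOC11. The Notch target Hey2 had 1.02 FPKM in AOC11 and was listed at 0 in AOC3, close to the threshold, and the target Hes1 had 9.97 FPKM in AOC3 and 13.7 FPKM in AOC11. Among Hedgehog components, the co-receptor Boc had 0.0138 FPKM in AOC3 and 1.43 FPKM in AOC11, about 2 fragments against 206, a ratio of 103 with an interval from 28.1 to 855. The 6 others kept were within 1, among them Ptch1 with 6.15 FPKM in AOC3 and 8.31 FPKM in AOC11. Of kept Hedgehog components 14.3% were past 1, near the 11% of all kept genes. Ltbp1 and Ltbp2, which hold latent TGF-beta in the matrix or build elastic fibres, were higher in AOC3. Ltbp1 had 22.5 FPKM in AOC3 and 1.02 FPKM in AOC11 and a difference of 3.54, and Ltbp2 had 19.7 FPKM in AOC3 and 4.82 FPKM in AOC11. The activin antagonist Fst (follistatin) was higher in AOC11, with 3.53 FPKM in AOC3 and 14.4 FPKM in AOC11. The TGF-beta list held 5 genes higher in AOC3 and 3 in AOC11 of 33 kept, a share of 24.2% past 1.

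Cholesterol and fatty acid synthesis genes were shifted toward AOC3. Hmgcs1, which makes the precursor of mevalonate, had 126 FPKM in AOC3 and 56.4 FPKM in AOC11 and a difference of 1.15. Scd1, a fatty acid desaturase, had 60.2 FPKM in AOC3 and 24.9 FPKM in AOC11 and a difference of 1.24, and Insig1, a sterol sensor, had 72.6 FPKM in AOC3 and 30.4 FPKM in AOC11 and a difference of 1.23. Other members lay within 1, among them the squalene epoxidase Sqle, with 85.1 FPKM in AOC3 and 75.7 FPKM in AOC11, the fatty acid synthase Fasn, with 155 FPKM in AOC3 and 102 FPKM in AOC11, and the transcription factor Srebf2, with 128 FPKM in AOC3 and 94.4 FPKM in AOC11. In this list 7 of 25 kept genes were above 1 and 0 below -1, with a median of 0.60 beside -0.03 for all kept genes. The share past 1 was 28%, beside 11% of all kept genes.

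The cyclooxygenase genes went in opposite directions. Ptgs1, the constitutive cyclooxygenase, had 29.4 FPKM in AOC3 and 4.0 FPKM in AOC11 and a difference of 2.61, and Ptges, the inducible prostaglandin E synthase, had 25.2 FPKM in AOC3 and 1.63 FPKM in AOC11 and a difference of 3.32. Ptgs2, the inducible cyclooxygenase, had 4.91 FPKM in AOC3 and 52 FPKM in AOC11 and a difference of -3.17. Pla2g4a, the phospholipase that frees arachidonic acid, had 6.75 FPKM in AOC3 and 18.7 FPKM in AOC11. Of 8 kept eicosanoid genes 2 were higher in AOC3 and 3 in AOC11, a share of 62.5% past 1 beside 11% of all kept genes.

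Antioxidant genes leaned to AOC3 with exceptions. Nqo1, a quinone reductase and common target of NRF2, had 7.04 FPKM in AOC3 and 0.95 FPKM in AOC11 and a difference of 2.04, and the glutathione transferase Gsta4 had 6.77 FPKM in AOC3 and 1.45 FPKM in AOC11. Gpx2, a glutathione peroxidase, had 0.0701 FPKM in AOC3 and 3.07 FPKM in AOC11, and the transferase Gstm2 had 0.659 FPKM in AOC3 and 4.28 FPKM in AOC11, both higher in AOC11. The list had 4 members above 1, 3 below -1 and a median of 0.35 over 34 kept, with 20.6% past 1 beside 11% of all kept genes. Of 21 kept p53 pathway genes, 2 were above 1 and 0 below -1, with a median of 0.43. This share of 9.52% past 1 is near the 11% of all kept genes. Cdkn2a, which encodes cell cycle inhibitors, had 282 FPKM in AOC3 and 137 FPKM in AOC11. Gdf15, a stress-induced cytokine, had 2.9 FPKM in AOC3 and 0.0494 FPKM in AOC11, about 134 fragments against 2, a ratio of 66.4 with an interval from 18 to 554. Cdkn1a, an inhibitor of cyclin-dependent kinases and p53 target, had 14.6 FPKM in AOC3 and 6.97 FPKM in AOC11 and a difference of 0.97. Trp53 itself had 104 FPKM in AOC3 and 76.5 FPKM in AOC11.

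Among genes of low oxygen, Adm (adrenomedullin) had 7.43 FPKM in AOC3 and 0.0735 FPKM in AOC11, about 305 fragments against 3, a ratio of 101 with an interval from 34.1 to 491. Egln3, a prolyl hydroxylase that marks HIF for decay, had 3.73 FPKM in AOC3 and 0.0477 FPKM in AOC11, and the lactate exporter Slc16a3 had 19.7 FPKM in AOC3 and 4.44 FPKM in AOC11. Car9, a carbonic anhydrase and HIF target, went the other way, with 3.6 FPKM in AOC3 and 12.7 FPKM in AOC11. The glycolytic enzyme Ldha was close, with 1035 FPKM in AOC3 and 1124 FPKM in AOC11. So was Gapdh, with 2305 FPKM in AOC3 and 2612 FPKM in AOC11. The hexokinase Hk1 was higher in AOC11, with a difference of -1.06 that came to -0.99 under quantile normalization. The list held 4 genes above 1 and 2 below -1 among 31, a share of 19.4% past 1 beside 11% of all kept genes.

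Housekeeping lists were narrow. None of 79 kept cytosolic ribosomal protein genes was past 1, although their median was -0.30, and Rpl34, the member farthest from 0, had 747 FPKM in AOC3 and 1468 FPKM in AOC11. None of 13 mitochondrially encoded proteins was past 1, and 1 of 76 nuclear oxidative phosphorylation genes was. That gene was Ndufb2, a subunit of complex I, with 15.2 FPKM in AOC3 and 59.1 FPKM in AOC11, and it is overlapped on the opposite strand by Braf. Cell cycle genes had a median of -0.11 over 40, with Ccne1 (cyclin E1), at 5.18 FPKM in AOC3 and 13.4 FPKM in AOC11, and Rrm2, a ribonucleotide reductase subunit, at 108 FPKM in AOC3 and 245 FPKM in AOC11, higher in AOC11. DNA repair genes had a median of 0.04 over 41, and the alkyladenine glycosylase Mpg was the member above 1, with 20.1 FPKM in AOC3 and 7.97 FPKM in AOC11. The shares past 1 were 5% for cell cycle and 2.44% for DNA repair genes, both below the 11% of all kept genes.

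Transcription factors that mark position in the head differed. Msx2, a homeobox factor of craniofacial tissue, had 0.75 FPKM in AOC3 and 16.5 FPKM in AOC11 and a difference of -3.32. Dlx3 and Dlx4, neighbours on chromosome 11, were higher in AOC3, with 6.54 FPKM in AOC3 and 1.04 FPKM in AOC11 for Dlx3 and 3.1 FPKM in AOC3 and 0.242 FPKM in AOC11 for Dlx4. Of 16 kept members 3 were higher in AOC3 and 4 in AOC11, a share of 43.8% past 1 beside 11% of all kept genes. In all 43 of the 59 with an entry stayed under 1 FPKM in both.

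Of 10 kept imprinted genes and long noncoding RNAs, 3 were higher in AOC3 and 1 in AOC11, a share of 40% past 1 beside 11% of all kept genes. Imprinted genes are expressed from 1 parental copy. Mest, a hydrolase-like gene of the paternal copy that overlaps Copg2, had 29.1 FPKM in AOC3 and 3.67 FPKM in AOC11 and a difference of 2.69. Snrpn had 3.06 FPKM in AOC11 and was listed at 0 in AOC3. Snrpn shares its transcript with Snurf, so the value is uncertain. Cdkn1c, another kinase inhibitor, had 1.63 FPKM in AOC3 and 0.182 FPKM in AOC11, and H19 was low in both, with 0.355 FPKM in AOC3 and 0.0513 FPKM in AOC11. Of 6 prolactin-like hormones of the placental family with an entry, 2 were kept, both only through AOC11, so the filter fixed their direction. They were Prl2c2 with 0.857 FPKM in AOC3 and 9.88 FPKM in AOC11 and Prl2c3 with 0.489 FPKM in AOC3 and 6.39 FPKM in AOC11. These are near-identical copies whose reads may be shared. The median of this family was -2.43 over kept genes and -0.46 with no filter on low values.

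Another list holds genes in which the study gives coding variants of these lines. Of 13 kept, 1 was higher in AOC3 (Cdkn2a) and 2 in AOC11 (Notch1 and Fgfr1), with values as given above, a share of 23.1% past 1 beside 11% of all kept genes. Hras, the small GTPase, had 46.8 FPKM in AOC3 and 77.8 FPKM in AOC11 and a difference of -0.72. Epha2, an ephrin receptor, had 183 FPKM in AOC3 and 118 FPKM in AOC11, the atypical cadherin Fat1 had 32.1 FPKM in AOC3 and 37.3 FPKM in AOC11 and the methyltransferase Kmt2d had 9.25 FPKM in AOC3 and 8.55 FPKM in AOC11. Sox2 was near 0 in both, with 0.0157 FPKM in AOC3 and 0 FPKM in AOC11.

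Some of the largest differences lay outside these pathways. Ngfr, the low-affinity nerve growth factor receptor found on basal epithelial cells, had 109 FPKM in AOC3 and 4.63 FPKM in AOC11 and a difference of 4.29. The transcription regulator Eya2, with 30.9 FPKM in AOC3 and 0.642 FPKM in AOC11, and the RNA-binding protein Rbpms, with 34.1 FPKM in AOC3 and 0.87 FPKM in AOC11, were higher in AOC3. So were the surface mucin-like proteins Cd34, with 16.6 FPKM in AOC3 and 0.303 FPKM in AOC11, and Pdpn (podoplanin), with 18.2 FPKM in AOC3 and 0.468 FPKM in AOC11. On the side of AOC11 stood Arhgdib, a GDP-dissociation inhibitor of small GTPases, with 0.893 FPKM in AOC3 and 48.8 FPKM in AOC11, and the small heat shock protein Cryab (overlapped by Hspb2), with 4.0 FPKM in AOC3 and 101 FPKM in AOC11. U90926 had 0.415 FPKM in AOC3 and 69 FPKM in AOC11 and a difference of -5.63, and the interleukin-18 receptor chain Il18r1 had 1.33 FPKM in AOC3 and 22.4 FPKM in AOC11. Ncstn (nicastrin), a subunit of gamma-secretase, the protease that cleaves Notch receptors, had 3.77 FPKM in AOC3 and 46.4 FPKM in AOC11 and a difference of -3.31, and it is overlapped on the opposite strand by Copa. Gpr176, an orphan G protein-coupled receptor, with 0.183 FPKM in AOC3 and 13.1 FPKM in AOC11, the diacylglycerol kinase Dgkk, with 0.115 FPKM in AOC3 and 10.1 FPKM in AOC11, and the phosphatase subunit Ppp2r2c, with 1.32 FPKM in AOC3 and 20.5 FPKM in AOC11, were also higher in AOC11. Gxylt2, a xylosyltransferase that modifies Notch, with 18.3 FPKM in AOC3 and 0.441 FPKM in AOC11, and Magohb, an exon junction protein, with 34.1 FPKM in AOC3 and 1.37 FPKM in AOC11, were higher in AOC3.

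Genes that do not code for protein leaned to AOC3. Of 254 kept lincRNA genes 49 were higher in AOC3 and 11 in AOC11. Of 296 antisense genes the numbers were 40 and 7, and of 907 processed pseudogenes 54 and 20. Their shares past 1 were 23.6%, 15.9% and 8.16%, beside 11% of all kept genes. Their medians were 0.27, 0.33 and 0.10, against -0.05 for protein-coding genes. Gm46223 had 113 FPKM in AOC3 and 3.74 FPKM in AOC11 and AC102496.1 had 61.4 FPKM in AOC3 and 0.64 FPKM in AOC11. The nuclear RNA Malat1 had 33.6 FPKM in AOC3 and 13.2 FPKM in AOC11, while Neat1 had 46.8 FPKM in AOC3 and 55.7 FPKM in AOC11. CT010467.1 and Gm42418, among the 5 noncoding genes with the largest positive differences, lie in the ribosomal repeat described above and overlap each other. Their differences were 3.96 and 4.05.

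Short motifs were counted in the promoters of the genes past 1. Of 9006 kept genes with a promoter in the RefSeq table (250 bases before the start, both strands searched), 6.66% held the ETS motif (CCGGAA followed by GT), against 2.88% of 486 genes higher in AOC3 and 3.76% of 452 higher in AOC11. The AP-1 motif TGANTCA was found in 4.3%, 7.0% and 6.64% of the same sets, and TATAAA in 5.93%, 9.47% and 6.42%. GC boxes were found in 61.4%, 54.5% and 59.96%. The ETS share was lower and the AP-1 share higher in both sets than in all kept genes. The ETS shares rest on 14 of 486 and 17 of 452 promoters. As given above, the share past 1 was larger at low levels, and the sets were not matched on level. Motifs were searched one by one and their matches may overlap.

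Differences were uneven along the genome. On chromosome 3, 56 of 542 protein-coding genes were higher in AOC11 and 19 in AOC3, with a median of -0.40, and on chromosome 5 the numbers were 63 and 18 of 708, with a median of -0.37. Chromosome 15 leaned the other way, with 39 of 449 genes higher in AOC3, 14 higher in AOC11 and a median of 0.27. Chromosome 9, at 0.20, chromosome 16, at 0.20, and chromosome 4, at 0.16, also lay above 0, and chromosome 6, at -0.25, below. The median over all protein-coding genes was -0.05. On chromosome 5, 19.9% of genes were above 0, and on chromosome 15, 75.9%. In runs of 25 neighbouring genes at 5 FPKM or more, the lowest median was -0.77, at chr5:88720855-92965318, from Mob1b to Shroom3, with 20 genes below 0, and the highest was 0.53, at chr9:57155035-60880370, from Commd4 to Uaca, with 24 above 0. The runs were picked for their medians and are a description. The run on chromosome 5 spans Cxcl5, Ppbp and Cxcl3, given above as higher in AOC11. Between the lymph node lines the runs had medians of -0.23 and 0.05. There chromosomes 3, 5, 6, 4 and 16 kept their direction, at -0.45, -0.18, -0.43, 0.08 and 0.42. Chromosomes 15 and 9 lay below 0, at -0.05 and -0.16. Genes that went against their chromosome included Cldn3 on chromosome 5 and Krt7 on chromosome 15.

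**Figure D4:**
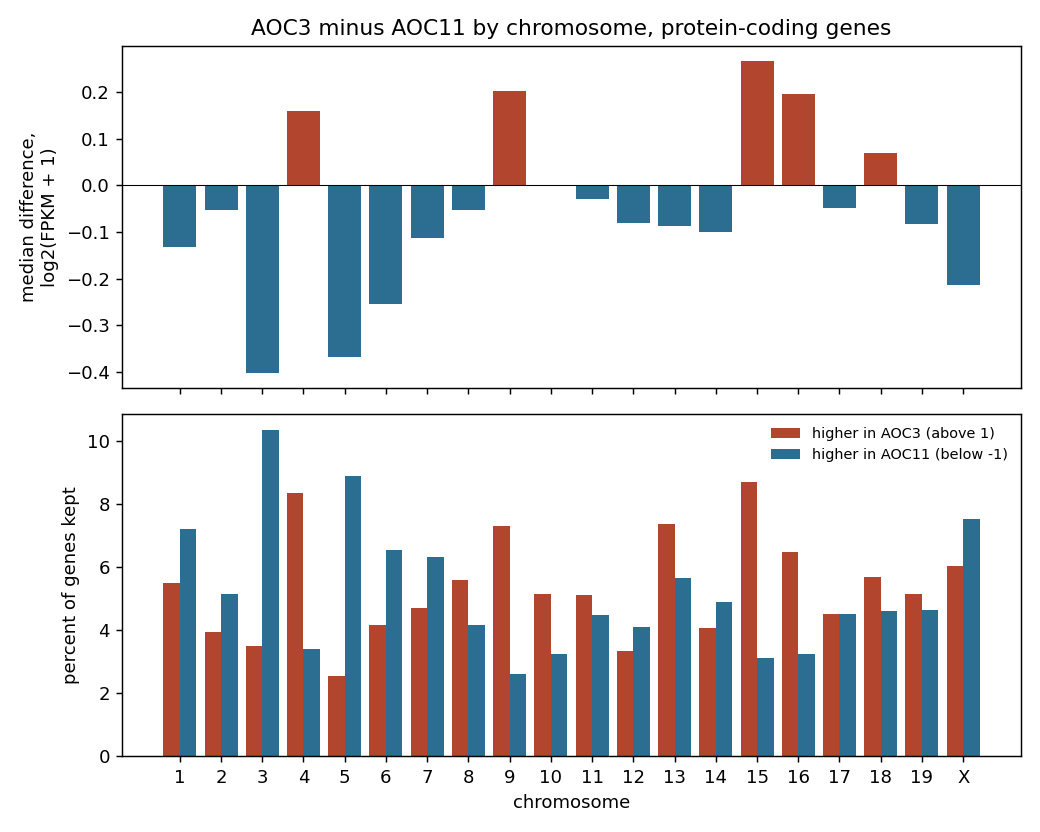
Protein-coding genes by chromosome: the upper panel shows the median difference of log2(FPKM + 1), AOC3 minus AOC11, and the lower panel the percentage of kept genes above 1 (red) and below -1 (blue). Chromosomes 3 and 5 have the lowest medians, -0.40 and -0.37, and chromosome 15 the highest, 0.27.

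The lymph node lines of the same mice show how far these differences carried over. Among the 786 genes higher in AOC3, 252 (32.1%) were also above 1 in AOC3-LN minus AOC11-LN and 59 (7.51%) were below -1, where 5.0% of all kept genes were above 1. Among the 646 genes higher in AOC11, 382 (59.1%) were also below -1 and 5 (0.774%) were above 1, where 9.52% of all kept genes were below -1. Krt5, with 275 FPKM in AOC3-LN and 17 FPKM in AOC11-LN, and Klk8, with 411 and 3.53 FPKM, kept the contrast of the primary lines, and so did Krt7, with 5.91 and 306 FPKM. Cldn3 did not, with 242 and 186 FPKM, nor did Krt19, with 50.1 and 63.3 FPKM. AOC11 was thus the line of the 4 that stood apart in Cldn3, and AOC3 the one in Krt19. The median over interferon-stimulated genes was -2.24 between the lymph node lines, where 37 of the 43 genes were below -1, and that over class I genes was -2.04. The median over the cholesterol and fatty acid list was 0.60 between the primary lines and -0.31 between the lymph node lines.

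**Figure D5:**
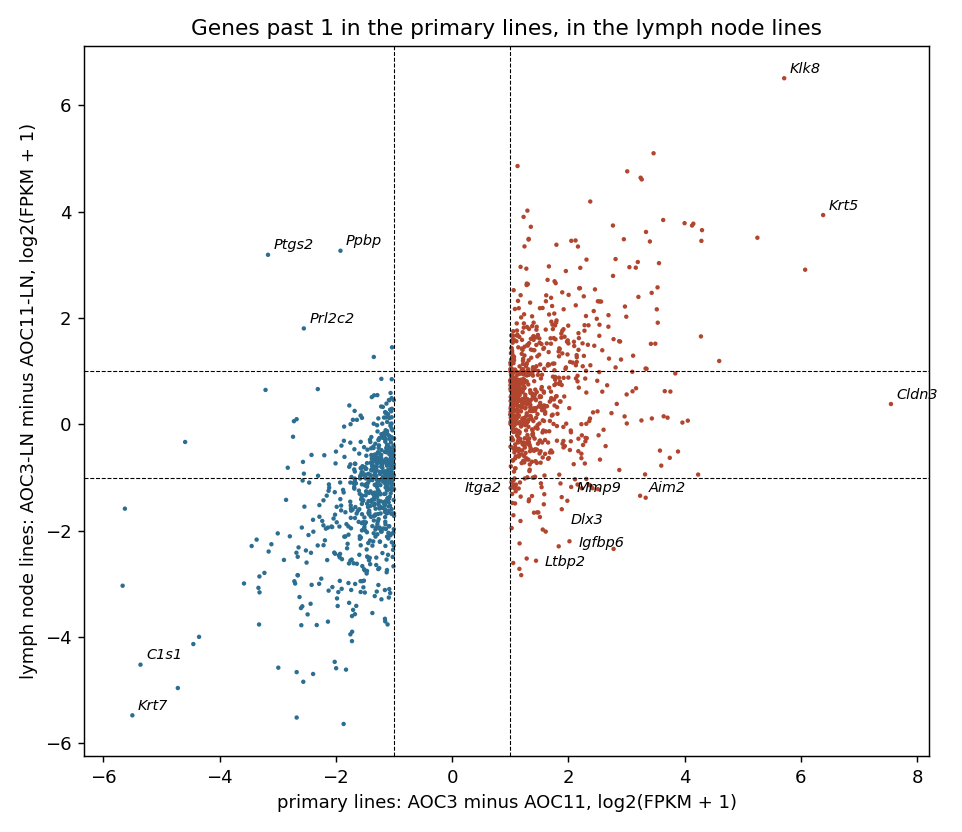
Genes past 1 between the primary lines (horizontal, AOC3 minus AOC11) plotted against the lymph node lines of the same mice (vertical, AOC3-LN minus AOC11-LN), as differences of log2(FPKM + 1). Krt7, C1s1, Krt5 and Klk8 keep their direction, Cldn3 lies near 0 on the vertical axis, and Ptgs2, Ppbp and Prl2c2 lie in the opposite quadrant.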

How the data were processed

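RNA from AOC3 and AOC11 cells was made into stranded mRNA libraries and sequenced in pairs of reads, 1 library per line. The submitters' processing notes name Trim Galore, TopHat2 and Cufflinks and the mouse build mm10. The authors deposited FPKM values per gene, on a linear scale and with nothing pooled. How strand was used in counting is not given in the sources used here. Gene names, types and positions came from GENCODE M21. For 29 genes with several entries the highest was used. A pseudocount of 1 was added before log2, and genes under 1 FPKM in both lines or with a longest transcript under 200 bases were left out. The depth behind the values was estimated from their spacing in 9528 genes with 1 transcript of over 800 bases, of which between 71.2% and 74.1% of the low values fell within 0.1 of a whole multiple, against 20% for even spacing, and the estimate was checked on values made with a known depth. Each gene list is described by its counts and median. Members and lists were chosen with earlier results of these data known. Genes could be named if they were among the 15 protein-coding or 5 noncoding genes farthest from 0 in a direction, the 4 farthest members of a list, members at 0 in 1 line, the 10 most expressed genes of a line, markers or genes with listed variants. Other list members are examples, and some genes are not reported here. Where a lower value rested on 1 to 3 fragments, the ratio has an exact 95% interval. Python 3.11.15, pandas 2.3.3 and scipy 1.17.1 were used.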

Additional observations from a re-analysis of the deposited data

Results flagged for a closer look

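Genes named in the report were marked where they were past 1 in opposite directions between the primary lines (AOC3 minus AOC11) and between the lymph node lines (AOC3-LN minus AOC11-LN). With 1 library per line the difference between these comparisons was not tested. Ptgs2, the inducible cyclooxygenase, had differences of -3.17 and 3.19, 6.35 apart, with 53.2 FPKM in AOC3-LN and 4.95 FPKM in AOC11-LN. Prl2c2, a prolactin-like hormone whose reads may be shared with its copies, had differences of -2.55 and 1.80, 4.35 apart, with 7.22 FPKM in AOC3-LN and 1.35 FPKM in AOC11-LN. Ppbp, a CXC chemokine, had differences of -1.92 and 3.26, 5.18 apart, with 256 FPKM in AOC3-LN and 25.7 FPKM in AOC11-LN. Itga2, the collagen receptor subunit, had differences of 1.14 and -1.21, -2.35 apart, with 2.32 FPKM in AOC3-LN and 6.67 FPKM in AOC11-LN. Ltbp2, a matrix protein of the TGF-beta list, had differences of 1.83 and -2.29, -4.13 apart, with 1.24 FPKM in AOC3-LN and 9.99 FPKM in AOC11-LN. Dlx3, the homeobox factor, had differences of 1.89 and -1.60, -3.48 apart, with 0.993 FPKM in AOC3-LN and 5.03 FPKM in AOC11-LN. Mmp9, the gelatinase, had differences of 1.98 and -1.44, -3.42 apart, with 5.6 FPKM in AOC3-LN and 16.9 FPKM in AOC11-LN. Igfbp6, the growth factor binding protein, had differences of 2.02 and -2.20, -4.22 apart, with 0.295 FPKM in AOC3-LN and 4.95 FPKM in AOC11-LN. Aim2, the DNA sensor, had differences of 3.23 and -1.34, -4.58 apart, with 0.616 FPKM in AOC3-LN and 3.1 FPKM in AOC11-LN.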

How the results depend on the processing

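No paired analysis was possible because each line is 1 library, so the result comes from no test and the groups compared share a single replicate number. The count of genes past 1 depended most on the pseudocount and the filter. With a pseudocount of 0.1 it was 2216, with 1265 higher in AOC3, and 13 interferon-stimulated genes were past 1. Among genes at 5 FPKM or more in either line it was 938, with 488 higher in AOC3, 4 stratified keratin and squamous factor genes and 2 kallikreins. All settings gave more genes higher in AOC3 than in AOC11 except protein-coding genes alone, with 579 against 583. Quantile normalization gave 727 and 680, and scaling by the median ratio 854 and 584. List medians that moved were, with no filter on low values, complement at 0.0015, prolactin-like hormones at -0.46 and positional factors at 0, and prolactin-like hormones at -3.42 with a pseudocount of 0.1 and eicosanoid genes at -0.45 at 5 FPKM. Of 151 list members past 1, 8 came within 1 under quantile normalization or scaling by the median ratio. Among these were Dsp, Hey2, Nectin1, H2-T22, H2-T23 and Tapbp. In the 7 settings tried, 0 of the 151 changed direction, but most settings could not have changed one. The filters leave a difference as it is, and another pseudocount cannot reverse its sign. Scaling by 0.966 is too small to reverse a difference past 1. Only quantile normalization could have done so. The depth limits genes near 1 FPKM, whose lower value often rests on a few fragments.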
